A study of Homo sapiens with 40 samples.

Results

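HINFP was depleted with small interfering RNA (siRNA) in U2OS cells, and the transcripts present on day 3 were compared with those of cells that had received control siRNA. U2OS is a human osteosarcoma line that grows without limit in culture. The comparison rests on 4 of the 40 arrays of the study, 2 with HINFP siRNA and 2 with control siRNA, which were chosen by the cell line, siRNA and day given in their labels. All 22069 Ensembl genes on the arrays were included. The siRNAs against HINFP were pooled and, like the commercial negative control siRNA, used at 15 nM. The duplicates of a group were transfected together, so the p-values measure the spread between these arrays, which excludes variation between separate experiments. Each gene was targeted with 1 pool, so the effect of losing HINFP and that of a single siRNA in the pool cannot be told apart. For comparison, the same HINFP siRNA was given to hTERT-RPE1 cells, a normal retinal pigment epithelial line made immortal with telomerase, and U2OS cells also received CASP8AP2 or NPAT siRNA, with 2 arrays per group on day 3.

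HINFP is a zinc finger transcription factor that binds the promoters of histone H4 genes and takes part in switching them on as cells enter S phase. NPAT is the coactivator that links cyclin E and CDK2 to histone gene transcription, and CASP8AP2 (also called FLASH) is a partner of NPAT in the histone locus body and in the processing of histone transcripts.

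Levels are given as log2 of the normalized array intensity, and every difference is HINFP siRNA minus control siRNA on that scale unless another comparison is named, so that a difference of 1 is a doubling. A gene was called when its adjusted p was under 0.05 in the limma fit. Symbols could be given to 1910 of the 22069 genes, 8.65%, through identifier and symbol pairs that the study itself supplies, and the groups described here hold these genes alone. The measured members of a group are those with a symbol, and other members may be on the arrays without a name here. No replication-dependent histone gene was among them, and these genes are not analysed here. Of the mesenchymal markers with a symbol, FN1 lay between 10.95 and 11.10, CDH2 between 9.28 and 9.36 and RUNX2, the osteoblast transcription factor, between 7.44 and 8.07 over the 4 U2OS arrays. Each of these genes was higher on the 4 hTERT-RPE1 arrays. There FN1 lay at 12.54 to 12.70, CDH2 at 10.98 to 11.04 and RUNX2 at 9.10 to 9.84. COL1A2, a collagen of bone, was near the bottom of the range in U2OS, between 3.98 and 4.21. The pigment epithelium markers RLBP1 and BEST1 lay between 3.55 and 4.09 in the 4 hTERT-RPE1 arrays, which is close to the immune markers CD14 and CD3E in the same arrays, at 3.14 to 3.67. No marker with a symbol was called between HINFP and control siRNA in U2OS by limma, and 0 had an unadjusted p under 0.05.

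HINFP itself was measured at 7.10 and 6.86 in the control arrays and at 5.61 and 5.07 in the arrays with HINFP siRNA. The groups did not overlap, and the second of the arrays with HINFP siRNA was the lower. HINFP fell by 1.64 (SE 0.15, adjusted p = 2.63e-05), a level 3.12-fold lower than in control cells. In these bulk samples, fewer cells with a transcript and less of it per cell cannot be told apart. Its partners were not called. NPAT was at 8.65 and 8.59 in control cells and at 8.60 and 8.42 after HINFP siRNA, a difference of -0.11 whose 95% interval extends 0.24 to each side (adjusted p = 0.637). CASP8AP2 was at 6.80 and 6.82 in control cells and at 7.04 and 6.77 after HINFP siRNA, a difference of 0.09 with an interval of 0.23 to each side (adjusted p = 0.708). Of 17 genes listed for histone gene transcription and 3-prime processing, 6 had a symbol here. HINFP, the target of the siRNA, was the single one called, beside 12.8% called of all genes with a symbol.

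Across all genes 9.43% were called, 4.59% higher and 4.84% lower than in control cells, and among the genes with a symbol the share was 12.8%. Among these, 119 were higher (6.23%) and 126 lower (6.6%). Rises reached further than falls. A total of 121 genes were called with a rise of at least 1 (0.548%) against 51 with a fall of at least 1 (0.231%), and 26 were called with a rise of at least 2 while 0 had a fall of that size. The fitted differences ran from -1.78 to 5.47, and the median over all genes was -0.01. Calls depended on the level in control cells. When the genes were put in 4 equal bins by control level, 1.01% of the lowest bin were called, 49 higher and 7 lower, whereas of the highest bin 14.2% were called, 245 higher and 537 lower. Every called gene had both HINFP arrays outside the range of the control arrays, which was so for 24.5% of all genes upward and for 28.1% downward. Of the 4 arrays, 3 each moved the count of called genes by over 1.5 times when left out, from 2081 to 814 without the second HINFP array, to 833 without the first control array and to 1141 without the second control array.

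**Figure D1:**
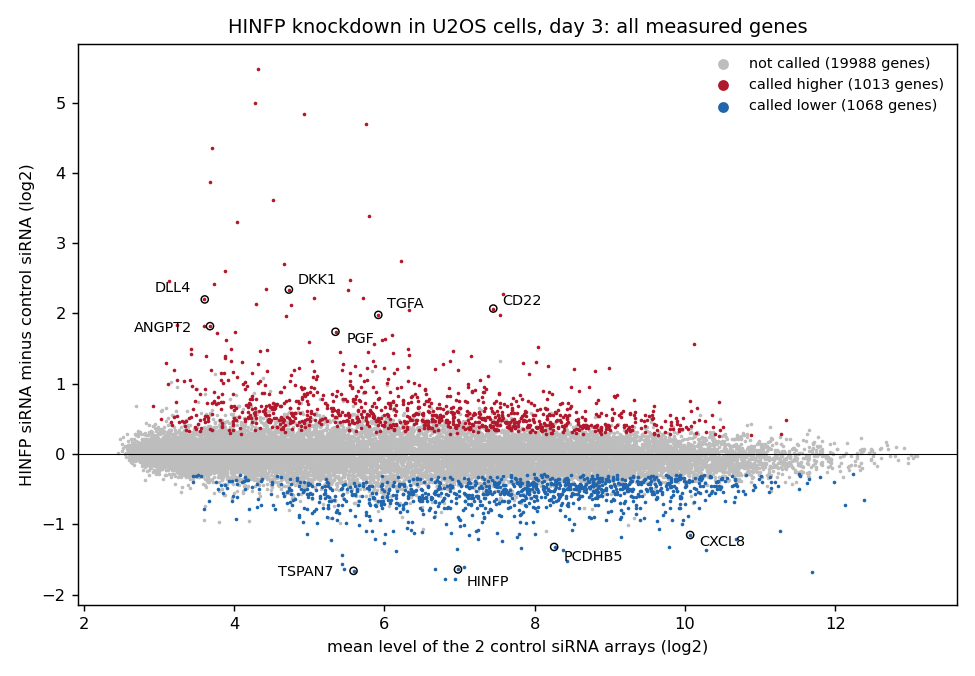
Each point is 1 of the 22069 genes, with the mean log2 level of the 2 control siRNA arrays on the horizontal axis and the log2 difference between HINFP and control siRNA in U2OS cells on day 3 on the vertical axis. The 1013 genes called higher are red, the 1068 called lower are blue and the others grey. The rises of over 2 lie at control levels below 8, while no fall reaches 2, and HINFP itself is at -1.64.

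The histone gene H2AX, which encodes the variant that is phosphorylated at DNA breaks, was not called (9.29 and 9.46 in control cells, 9.30 and 9.24 after HINFP siRNA, difference -0.10). CHAF1B, a subunit of the chromatin assembly factor that loads new histones behind the replication fork, fell by 0.41 (SE 0.10, adjusted p = 0.0225), from 8.00 and 7.92 to 7.52 and 7.57. CHAF1B was the single called gene among 4 histone chaperones, beside 12.8% called of all genes with a symbol, and it was not called without any 1 of the 4 arrays.

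Among the 12 largest rises of genes with a symbol were those of secreted ligands and cell surface proteins. DKK1, a secreted inhibitor of Wnt signalling, was at 4.73 and 4.72 in control cells and at 7.00 and 7.13 after HINFP siRNA, a rise of 2.34 (SE 0.10, adjusted p = 2.04e-08) or 5.05-fold. DLL4, a ligand of Notch receptors, was at 3.58 and 3.63 in control cells and at 5.44 and 6.18 after HINFP siRNA, a rise of 2.20 (SE 0.19, adjusted p = 1.75e-05). CD22, best known as an inhibitory lectin of B cells, was at 7.45 on both control arrays and at 9.35 and 9.70 after HINFP siRNA, a rise of 2.07 (SE 0.17, adjusted p = 1.37e-05). TGFA, a ligand of the epidermal growth factor receptor, rose by 1.98 (SE 0.21, adjusted p = 9.14e-05), from 5.97 and 5.87 to 7.76 and 8.04.

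ANGPT2, which antagonises the endothelial receptor TIE2, was close to the bottom of the range in control cells, at 3.75 and 3.60, and lay at 5.25 and 5.75 after HINFP siRNA, a rise of 1.82 (SE 0.15, adjusted p = 1.07e-05). PGF, placental growth factor, rose by 1.74 (SE 0.12, adjusted p = 2.77e-06), from 5.27 and 5.44 to 6.97 and 7.21. In both genes the arrays within a group lay much closer together than the groups did. The other rises of at least 1 were those of KLK6, a secreted serine protease, by 1.22, of the interleukin 6 receptor gene IL6R by 1.21, of the Notch target gene HEY1 by 1.16 and of the bone morphogenetic protein gene BMP6 by 1.04. ZNF280A (0.95) and CCNA1, the germline cyclin A (0.92), completed the 12. CCNA1 was at 4.28 and 4.00 in control cells and 4.96 and 5.16 after HINFP siRNA, and it was not called without the second HINFP array or without the second control array, while the calls of the other 11 held in every fit that left out 1 array.

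Among the 12 largest falls, 10 of which are described here, were those of HINFP, TSPAN7, PCDHB5 and TTPA. TSPAN7, a tetraspanin of the cell surface, fell by 1.66 (SE 0.40, adjusted p = 0.0187), but the HINFP arrays were far apart at 3.16 and 4.69 against 5.82 and 5.36 in control cells, and the call was lost without the first HINFP array or the first control array. PCDHB5, a clustered protocadherin of cell adhesion, fell by 1.32 (SE 0.22, adjusted p = 0.00259), from 8.18 and 8.35 to 7.23 and 6.66. TTPA, the transfer protein for vitamin E, was at 6.04 and 5.95 in control cells and at 4.72 on both HINFP arrays, a fall of 1.27 (SE 0.15, adjusted p = 0.000213). The other genes of the 10 fell by between 0.90 and 1.15. CXCL8 encodes the chemokine interleukin 8 and AMIGO2 an adhesion protein. MGST1 encodes a microsomal glutathione transferase, OSGEPL1 a mitochondrial tRNA modification enzyme, CRYZ a quinone reductase and GJA1 the main gap junction protein of many tissues. GJA1 had the smallest standard error of these, with 9.17 and 9.14 in control cells and 8.23 and 8.28 after HINFP siRNA (fall of 0.90, SE 0.08, adjusted p = 1.66e-05). CRYZ was not called without the first HINFP array or the first control array.

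**Figure D2:**
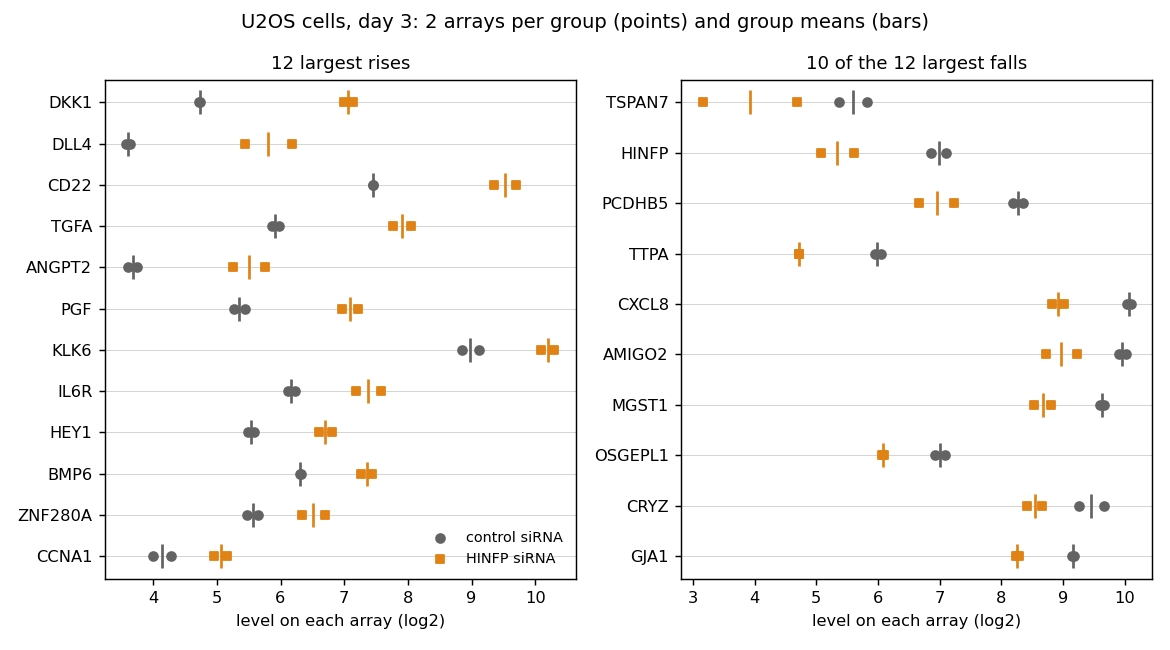
The log2 level on each U2OS array of day 3 is plotted for the 12 called genes with a symbol that rose most and for 10 of the 12 that fell most, with grey circles for the 2 control siRNA arrays, orange squares for the 2 HINFP siRNA arrays and bars for group means. The groups do not overlap for any of these genes, and the widest gap between duplicates is that of TSPAN7, at 3.16 and 4.69 after HINFP siRNA.

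Genes without a symbol reached further in both directions. ENSG00000183813 was at 4.28 and 4.35 in control cells and at 9.99 and 9.58 after HINFP siRNA, a rise of 5.47 (SE 0.17, adjusted p = 1.91e-09) or 44.3-fold. ENSG00000252421 rose by 5.00 (SE 0.17, adjusted p = 2.66e-09), from 4.42 and 4.15 to 9.39 and 9.18. ENSG00000100739 fell by 1.78 and ENSG00000170381 fell by 1.77, with adjusted p-values of 0.000485 and 3.09e-06.

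Regulators of Wnt and Notch signalling were the group with the most calls, beside 12.8% called of all genes with a symbol. Like the other lists, this one was chosen with earlier results of these data known, so its count carries no weight of its own. Of 8 measured members 6 were called higher, 1 was called lower and 1 was not called, and the median difference was 0.56 against -0.01 over all genes with a symbol. The Notch pathway gave 4 of the rises, at the level of the ligands DLL4 and JAG1, the receptor NOTCH2 and the target HEY1. JAG1 was at 7.55 and 7.48 in control cells and at 8.03 and 8.09 after HINFP siRNA (rise of 0.55, SE 0.12, adjusted p = 0.0122), and NOTCH2 was at 9.93 and 9.99 and then at 10.22 and 10.42 (rise of 0.36, SE 0.10, adjusted p = 0.0422). HEY1 was at 5.59 and 5.49 in control cells and at 6.60 and 6.81 after HINFP siRNA (SE 0.14, adjusted p = 0.000309). On the Wnt side DKK1 rose, NKD1, an intracellular inhibitor, rose by 0.58 (SE 0.17, adjusted p = 0.0457), and the ligand WNT5A fell by 0.73 (SE 0.11, adjusted p = 0.000927), from 5.37 and 5.14 to 4.59 and 4.45. SFRP1, a secreted inhibitor, was not called (-0.18). Outside the group, the Wnt coreceptor LRP5 rose by 0.78 (SE 0.12, adjusted p = 0.00142). The calls of JAG1, NKD1 and NOTCH2 were each lost without any 1 of 3 of the 4 arrays, that of NOTCH2 also when each array was centred on its median and that of NKD1 after cyclic loess and quantile normalization, whereas DKK1, DLL4, HEY1, WNT5A and LRP5 kept their calls without any single array.

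Inflammatory target genes of NF-kB were lower or not called. Of 6 measured members 4 were called lower and 0 higher, with a median of -0.70. Of all genes with a symbol, 6.6% were called lower. CXCL8 was at 10.10 and 10.04 in control cells and at 8.82 and 9.02 after HINFP siRNA, a fall of 1.15 (SE 0.18, adjusted p = 0.00158). IL1A, which encodes interleukin 1 alpha, was at 7.79 and 7.31 and then at 6.44 and 6.91, a fall of 0.88 (SE 0.19, adjusted p = 0.0115). BIRC3, an inhibitor of apoptosis, fell by 0.83 (SE 0.16, adjusted p = 0.00533), and PTGS2, the inducible cyclooxygenase, by 0.57 (SE 0.12, adjusted p = 0.00986). NFKB1 (0.14) and TNFAIP3 (-0.07), a feedback inhibitor, were not called. IL1A and PTGS2 were not called without the first HINFP array or the first control array, nor BIRC3 without the second HINFP array.

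Called genes of the cell cycle groups were lower apart from CCNA1, beside 12.8% of all genes with a symbol called in either direction. Of 12 measured genes of DNA replication 2 were called, both lower, and the median was -0.12. They were ORC1, the largest subunit of the origin recognition complex, which fell by 0.63 (SE 0.11, adjusted p = 0.00324) from 8.38 and 8.28 to 7.77 and 7.64, and RFC4, a subunit of the clamp loader, which fell by 0.46 (SE 0.11, adjusted p = 0.0209). The helicase subunit MCM3 (0.02), the loading factors CDC6 (-0.13) and CDT1 (-0.01) and the ribonucleotide reductase subunits RRM1 (-0.24) and RRM2 (0.01) were not called. Of 11 genes of the DNA damage checkpoint and repair, NBN, a subunit of the MRE11 complex, was the single one called, with a fall of 0.49 (SE 0.10, adjusted p = 0.00738). ECT2, which drives cytokinesis, was the single called gene of 4 for mitosis (fall of 0.43, SE 0.11, adjusted p = 0.0308). Of 7 cyclins and related regulators, E2F2 fell by 0.44 (SE 0.12, adjusted p = 0.0400) and CCNA1 rose, while CCNE1 (0.20), CCNE2 (-0.18), CCNA2 (-0.35) and E2F1 (-0.19) were not called. None of 6 target genes of p53 with a symbol was called, BBC3 and PMAIP1 included, none passed an unadjusted p of 0.05 in limma either, and their median was -0.03. RFC4, NBN, ECT2 and E2F2 each lost their calls without at least 1 of the arrays.

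The called genes of the metabolic and matrix groups were lower apart from COL6A3, again beside 12.8% called of all genes with a symbol. DHCR7 and FDFT1 fell by 0.38 and 0.29 among 6 genes of cholesterol synthesis, with adjusted p-values of 0.00885 and 0.0448. SLC7A11, the cystine transporter, was the single called gene of 8 in the ATF4 and unfolded protein response group (fall of 0.41, adjusted p = 0.0366). Among 12 matrix and TGF-beta response genes, LOX, a collagen crosslinking enzyme also counted with 4 hypoxia and glycolysis genes, fell by 0.56 (adjusted p = 0.00506), TGFBI fell by 0.37 (adjusted p = 0.0414) and COL6A3 rose by 0.45 (adjusted p = 0.0219). CCN2 (-0.05) and FN1 (0.06) were not called. Each of these 6 called genes lost its call without at least 1 array, SLC7A11, TGFBI and FDFT1 also after cyclic loess and quantile normalization. The ribosomal protein genes with a symbol, RPL36 and RPLP2, were not called (0.14 and -0.08).

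Further groups were assembled after the values had been seen, and their counts are descriptions, beside 12.8% called of all genes with a symbol. Of 4 ligands of the epidermal growth factor receptor, TGFA and HBEGF were higher, and EGF (-0.38) and BTC (-0.02) were not called. HBEGF was at 9.09 on both control arrays and at 9.82 and 10.03 after HINFP siRNA (rise of 0.84, SE 0.09, adjusted p = 0.000121). Among 5 VEGF and angiopoietin genes, ANGPT2 and PGF rose while VEGFC fell by 0.49 (SE 0.11, adjusted p = 0.0118). In the interleukin 1 and interleukin 6 families, 2 of 10 were higher and 4 lower. IL6R was at 6.23 and 6.11 in control cells and at 7.18 and 7.58 after HINFP siRNA, and SOCS3, the feedback inhibitor of cytokine receptors, rose by 0.64 (SE 0.12, adjusted p = 0.00479). The receptor genes IL1R1, IL31RA and IL27RA fell by 0.55, 0.54 and 0.44. Of the 4 caveolar and gap junction genes, CAV1, the main protein of caveolae, fell with GJA1, from 12.07 and 12.19 to 11.47 and 11.35 (fall of 0.72, SE 0.13, adjusted p = 0.00314). Of 4 cytosolic aminoacyl-tRNA synthetases, IARS1 and YARS1 fell by 0.39 and 0.36. BMP6 was the single called gene of 5 in the bone morphogenetic protein group, in which BMP4 (-0.24) and BMP5 (-0.76) were not called, and PCDHB5 that of 2 clustered protocadherin beta genes, beside PCDHB1 (-0.02). VEGFC, IL1R1, IL31RA, IL27RA, IARS1 and YARS1 each lost their calls without at least 1 array.

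**Figure D3:**
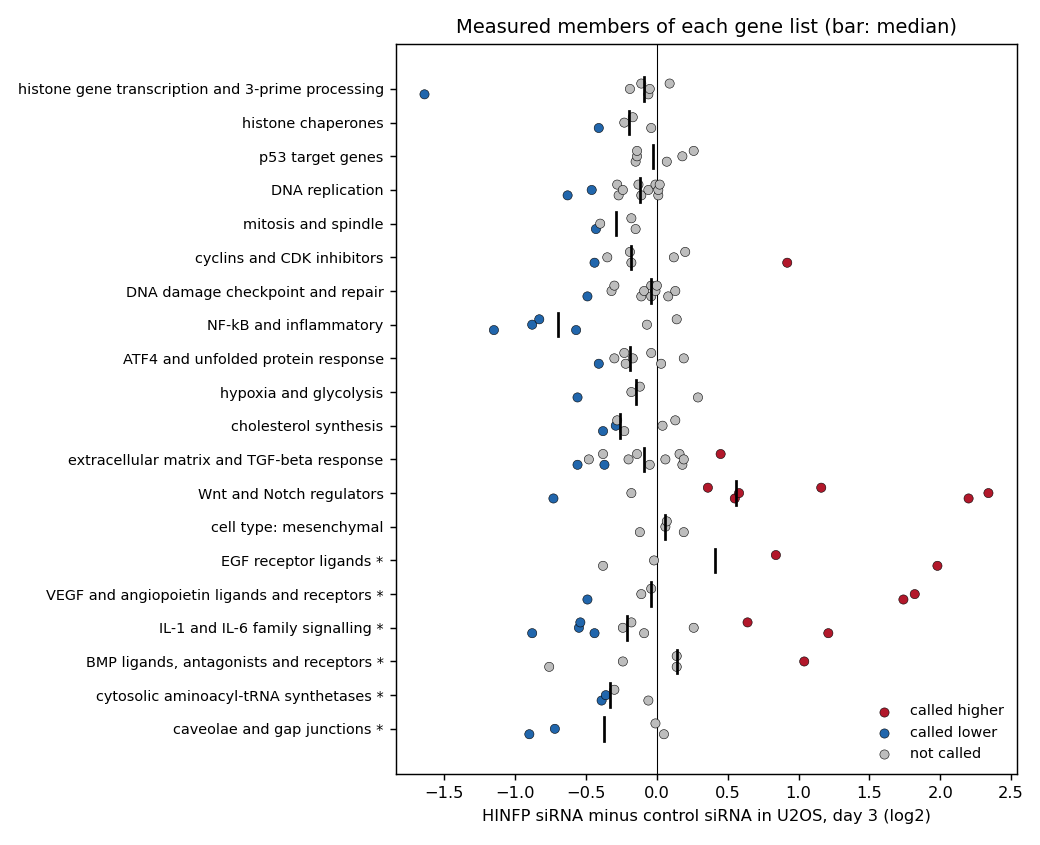
Each point is 1 measured gene of the group named at the left, placed by its log2 difference between HINFP and control siRNA in U2OS cells on day 3, red if called higher, blue if called lower and grey if not called, with a black bar at the group's median. Groups with an asterisk were assembled after the values had been seen, and the others were chosen with earlier results of these data known. The Wnt and Notch group reaches 2.34 with a median of 0.56, the NF-kB group has a median of -0.70, and the called genes of the cell cycle groups lie between -0.63 and -0.43 apart from CCNA1 at 0.92.

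Letters of the HINFP recognition sequence were looked for in promoters, as a description of the sequence alone. RefSeq promoters of GRCh38.p14, 250 bases before to 50 after a transcript start, were at hand for 1489 of the 1910 genes with a symbol. GCGGACG, on either strand, was in 8 of 97 promoter sets of genes called higher (8.25%), in 6 of 99 called lower (6.06%), in 84 of 1293 not called (6.5%) and in 5.15% of all genes in the promoter table. CGGACGT, which shares 6 letters with it, was in 2 of 97 (2.06%), 1 of 99 (1.01%), 31 of 1293 (2.4%) and 1.62%. A gene counted if any of its starts had a match. The following stretches show the match and its surroundings in called genes that are described here, with the matched letters in capitals (CGTCCGC and ACGTCCG are the same letters on the other strand), each written 5′ to 3′ on the strand of the gene.
IL6R: gttgccaggacCGTCCGCcgctctgagtca
SOCS3: ggcgccctctgGCGGACGcgggccgtaggt
NOTCH2: tggagaaggatGCGGACGgggccagtgact
TGFBI: cccgcccctggCGTCCGCtccctcccgctc
CAV1: cggcgcagcacACGTCCGggccaaccgcga
The IL6R stretch is chr1:154405357-154405386 on the plus strand, just after the start. That of SOCS3 is chr17:78360930-78360959 on the minus strand, with its first matched letter 23 bases before the start. That of NOTCH2 is chr1:120069809-120069838 on the minus strand, 165 bases before the start. That of TGFBI is chr5:136028921-136028950 on the plus strand, 56 bases before the start, and that of CAV1 is chr7:116524869-116524898 on the plus strand. The first 3 genes rose and the last 2 fell.

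The same knockdown was then compared between cell lines. In hTERT-RPE1 cells HINFP went from 7.15 and 7.33 to 6.16 and 6.23, a fall of 1.05 (adjusted p = 0.00263), and a difference between the lines was not called (difference -0.59, SE 0.21, adjusted p = 0.156). HINFP siRNA gave 4.15% of genes called in hTERT-RPE1, 2.13% higher and 2.01% lower, with 6.07% of the genes with a symbol and 13.3% of all genes called in U2OS. Of the 245 genes with a symbol called in U2OS, 49 were called in hTERT-RPE1 as well (20% of the U2OS calls and 42.2% of the 116 hTERT-RPE1 calls), 23 higher in both, 21 lower in both and 5 in opposite directions. CXCL8, PTGS2, IL1A, CHAF1B, E2F2 and PCDHB5 fell and COL6A3, JAG1 and NOTCH2 rose in both lines. The size of the effect was tested with the interaction, in which 3.15% of all genes were called (1.71% higher and 1.44% lower in U2OS), 3.72% of those with a symbol and 23.7% of those called in U2OS. The count was 695 genes, and 289 when the fit held the compared arrays alone. It lay between 284 and 423 without either HINFP array of hTERT-RPE1, the second HINFP array of U2OS or either control array of U2OS, each left out in turn.

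All 12 of the largest rises in U2OS differed from the effect in hTERT-RPE1, and 11 of them were not called there. They were chosen for their size on the same U2OS arrays, and that choice favours a difference in this test. Of all genes called in U2OS, 23.7% were called in the interaction. DKK1 was already at 9.91 and 9.79 in control hTERT-RPE1 cells and lay at 10.01 and 10.17 after HINFP siRNA, so that the effect in U2OS was larger by 2.10 (SE 0.14, adjusted p = 5.33e-06). DLL4 was at 3.73 and 3.72 in control hTERT-RPE1 cells and at 3.95 and 3.51 after HINFP siRNA, near the bottom of the range in both groups (difference of effects 2.20, SE 0.27, adjusted p = 0.000899). BMP6 fell in hTERT-RPE1, from 6.34 and 6.47 to 5.90 and 5.86 (adjusted p = 0.0112), and rose in U2OS from a like control level. HEY1 was at 4.67 and 4.81 in control hTERT-RPE1 cells and at 4.97 and 4.48 after HINFP siRNA.

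Of the 10 falls described among the largest, 4 differed between the lines. GJA1 was far higher in hTERT-RPE1, at 11.16 and 11.14 in control cells and 11.33 and 11.36 after HINFP siRNA, and the effects differed by -1.10 (SE 0.11, adjusted p = 0.000223). TTPA lay between 3.88 and 4.06 on all 4 hTERT-RPE1 arrays, near the bottom of the range.

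**Figure D4:**
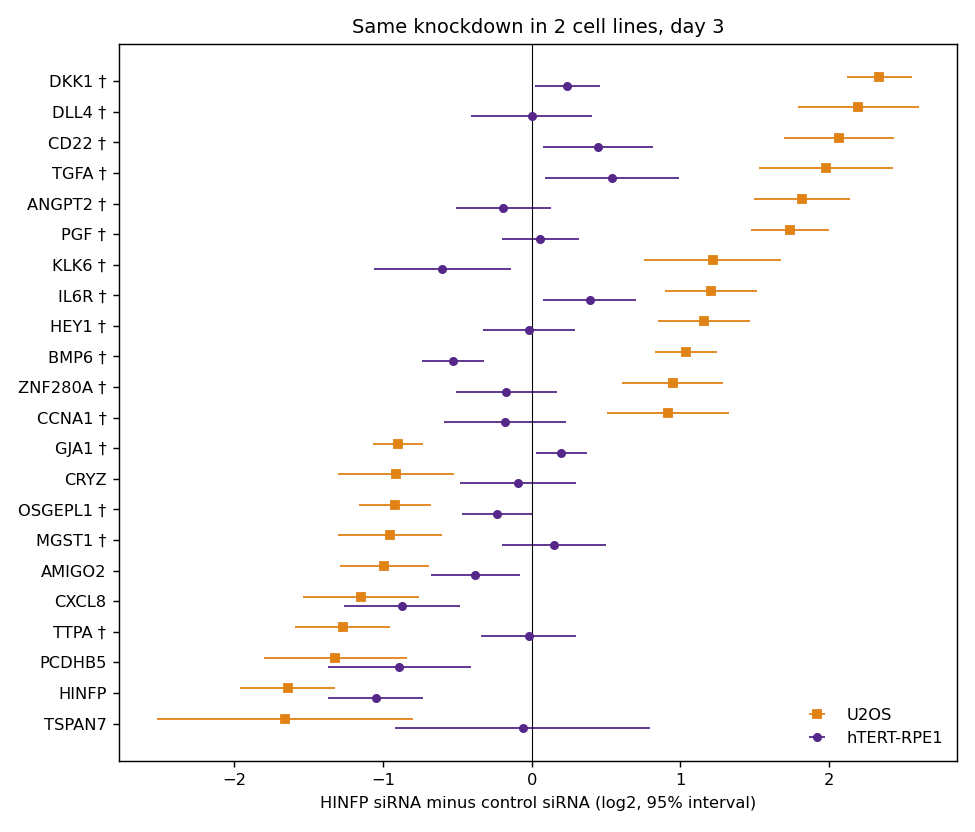
For the 12 largest rises and 10 of the 12 largest falls in U2OS, the log2 difference between HINFP and control siRNA on day 3 is shown in U2OS (orange squares) and hTERT-RPE1 (purple circles), with 95% intervals from the shared fit. A dagger marks genes whose effects differed between the lines at an adjusted p under 0.05. This was so for all 12 rises and for 4 of the 10 falls. The genes were chosen for their differences in U2OS, which enter this test.

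In U2OS cells, HINFP siRNA was also set against CASP8AP2 siRNA and NPAT siRNA directly, without the control arrays. HINFP and CASP8AP2 siRNA differed in 5.6% of all genes (3.16% higher and 2.44% lower after HINFP siRNA), in 6.86% of those with a symbol and in 17.6% of those called against control. HINFP and NPAT siRNA differed in 4.04% of all genes (2.05% higher and 1.99% lower), in 5.71% of those with a symbol and in 22.2% of those called against control. With the 4 arrays of each pair alone in the fit, 71 and 180 genes were called in place of 1235 and 892. The first count was 302 without the first CASP8AP2 array, 577 without the first HINFP array and 430 without the second, and the second count lay between 318 and 504 without any 1 of its 4 arrays. CD22 was higher after HINFP siRNA than after CASP8AP2 siRNA by 1.38 (SE 0.17, adjusted p = 0.000693) and than after NPAT siRNA by 1.47 (SE 0.17, adjusted p = 0.00052), with 8.28 and 8.02 on the CASP8AP2 arrays and 8.09 and 8.02 on the NPAT arrays. TGFA was higher by 0.86 and 1.11 (adjusted p = 0.0310 and 0.00994). GULP1, an engulfment adaptor that rose by 0.56 against control, was higher by 1.15 and 0.76 (adjusted p = 0.000122 and 0.00246), and LRP5 by 0.99 and 0.57 (adjusted p = 0.000508 and 0.0183). The call of GULP1 against control was lost without the second HINFP array or without either control array.

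For most of the 12 largest rises, no difference between HINFP and CASP8AP2 siRNA was called. Against CASP8AP2 siRNA, 2 of the 12 were higher after HINFP siRNA, 1 was lower and 9 were not called. Against NPAT siRNA, 6 were higher, 1 was lower and 5 were not called. The 12 were chosen for their rise on the same HINFP arrays, and that choice favours higher levels after HINFP siRNA in both tests. DKK1 lay at 6.83 and 7.04 after CASP8AP2 siRNA and at 6.48 and 6.60 after NPAT siRNA, and its level after HINFP siRNA differed from the former by 0.13 (95% interval 0.22 to each side, adjusted p = 0.539) and from the latter by 0.52 (adjusted p = 0.0115). ANGPT2 was higher than after NPAT siRNA by 1.08 (adjusted p = 0.00142) and differed by 0.29 from CASP8AP2 siRNA (adjusted p = 0.305). CCNA1 went the other way. It reached 6.94 and 7.39 after CASP8AP2 siRNA against 4.96 and 5.16 after HINFP siRNA, which was lower by 2.10 (SE 0.19, adjusted p = 6.43e-05).

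Of the 10 falls described among the largest, HINFP included, 7 were not called against CASP8AP2 siRNA, 2 were lower and 1 was higher after HINFP siRNA. Against NPAT siRNA, 3 were lower and 7 were not called. These genes too were chosen on the same HINFP arrays. Lower levels after HINFP siRNA were found for TGFBI against CASP8AP2 siRNA, by 1.00 (adjusted p = 0.000192), and for WNT5A against NPAT siRNA, by 0.95 (adjusted p = 0.000327). TGFBI rose by 0.63 with CASP8AP2 siRNA against control. Among the inflammatory genes, IL1A was at 8.10 and 8.00 after CASP8AP2 siRNA, 1.38 above its level after HINFP siRNA (SE 0.19, adjusted p = 0.00145). PTGS2 was lower after HINFP siRNA than after either of the other siRNAs, by 0.94 and 0.73 (adjusted p = 0.000823 and 0.00500). BIRC3 was higher after HINFP siRNA than after either, by 0.62 and 0.63 (adjusted p = 0.0379 and 0.0416). ENSG00000183813, the gene with the largest rise, was at 9.17 and 9.22 after CASP8AP2 siRNA, not called against HINFP siRNA, and at 5.86 and 5.37 after NPAT siRNA, lower by 4.17 (adjusted p = 5.71e-08).

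**Figure D5:**
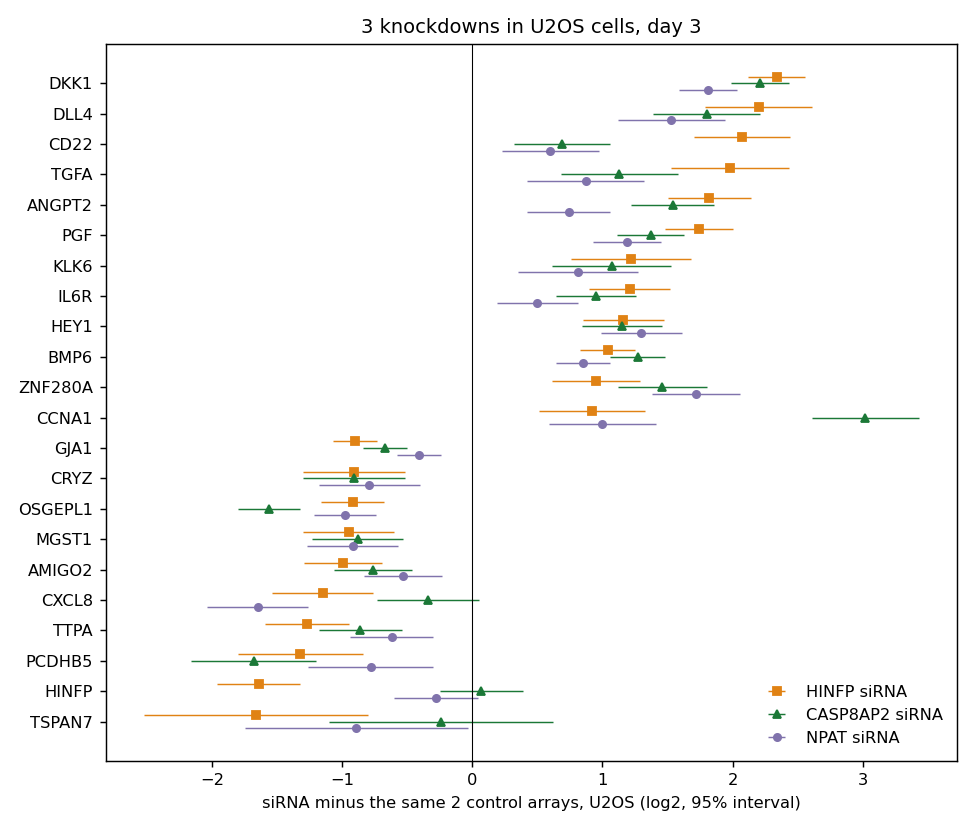
The log2 difference from control siRNA in U2OS cells on day 3 is shown for HINFP siRNA (orange squares), CASP8AP2 siRNA (green triangles) and NPAT siRNA (purple circles) with 95% intervals, for the same genes. The siRNAs share the 2 control arrays, so the points of a gene are not independent of each other. The genes were chosen for their differences with HINFP siRNA, which favours larger differences there. HINFP is low with HINFP siRNA alone among the 3, and CCNA1 is highest with CASP8AP2 siRNA, at 3.02.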

How the data were processed

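Total RNA was hybridised to Affymetrix Human WT arrays. The authors processed them with the Bioconductor packages affy and limma and a custom probe grouping with 1 probe set per Ensembl gene (RMA is named in the submitters' notes) and deposited log2 values. The version and build of the grouping are not given in the sources used here, so no gene coordinates were taken from it.

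The log2 values were used without a further normalization or filter. A mean per group was fitted over the 16 day 3 arrays (8 groups, 8 residual degrees of freedom) with limma 3.58.1 in R 4.3.3 (lmFit, eBayes). Tests were two-sided, with Benjamini-Hochberg adjustment over 22069 genes and calls at an adjusted p under 0.05. On simulated data for the HINFP comparison over 22069 genes, 97 of 100 genes changed by 1 and 48 of 100 changed by 0.5 were recovered, with 12 false calls. The simulated noise was normal and independent between genes and arrays, and far fewer genes were changed than were called in the real comparison. Noise shared by the genes of an array was left out, so these figures are not error rates of the real comparison. Intervals are 95%. Array means lay between 5.87 and 5.88, so each difference is relative to the other genes. Precision is limited by the number of arrays.

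The text names the 12 largest rises and falls among called, non-overlapping genes with a symbol, up to 4 called genes per list, the 3 largest each way in the other comparisons among genes also called against control, HINFP, NPAT and CASP8AP2, and at most 2 rises and 2 falls without a symbol. Some genes that this rule names are not reported here. JAG1, NOTCH2, NKD1 and the genes named from lists assembled later or as not called were chosen after their values were seen. The comparison and all lists were chosen with earlier results of these data known. Of 26 lists, 7 had no gene with a symbol. Alternatives were other sets of arrays in the fit, other scalings, a level filter, another variance prior, a replicate block and leaving out each array.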

Additional observations from a re-analysis of the deposited data

Results flagged for a closer look

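The effect of HINFP siRNA differed between U2OS and hTERT-RPE1 cells for 25 of the 47 genes named by rule, by the interaction test. Their limma adjusted p-values lay between 6e-07 and 0.0475, and 3.15% of all genes were called in this test. The rule picked some genes by this test and others by their change in U2OS, which is part of it. The count of 25 therefore carries no weight of its own. Each value is the effect in U2OS minus that in hTERT-RPE1 on the log2 scale, with 2 arrays per group. Among genes that rose in U2OS the difference was 2.20 for DLL4, 2.10 for DKK1, 2.01 for ANGPT2, 1.82 for KLK6, 1.67 for PGF, 1.63 for CD22, 1.56 for BMP6 and 1.45 for TGFA. It was 1.18 for HEY1, 1.12 for ZNF280A, 1.10 for CCNA1, 0.99 for GULP1, 0.82 for IL6R and 0.80 for LRP5. Among genes that fell in U2OS it was -1.30 for NRXN3, -1.26 for TTPA, -1.11 for MGST1 and -1.10 for GJA1, and it was -0.89 for LOX, -0.70 for OSGEPL1 and -0.56 for NBN. NRXN3, a neuronal adhesion protein, rose by 0.60 in hTERT-RPE1 (adjusted p = 0.0363) and fell by 0.70 in U2OS, where its call was lost without the second HINFP array or the first control array. Of the genes without a symbol, the difference was 4.63 for ENSG00000183813, 4.46 for ENSG00000252421, -1.90 for ENSG00000100739 and -1.68 for ENSG00000170381. CD22, TGFA, KLK6 and CCNA1 lay between 3.68 and 5.28 on the 4 hTERT-RPE1 arrays compared, in the lower part of the range. ANGPT2 (3.48 to 3.76) and ZNF280A (3.52 to 3.85) also lay low there. So did ENSG00000170381 (3.44 to 3.60) and ENSG00000252421 (3.80 to 4.44). HINFP fell by 1.64 in U2OS and by 1.05 in hTERT-RPE1, and the part of the knockdown or of the level in these differences was not tested.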

How the results depend on the processing

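With 2 arrays per group, the calls rest on a spread shared over 16 arrays, and the counts moved with the arrays in the fit. Counts for HINFP against control siRNA, the interaction, HINFP against CASP8AP2 siRNA and HINFP against NPAT siRNA are given in this order, after main counts of 2081, 695, 1235 and 892. With the arrays compared alone in the fit they were 1108, 289, 71 and 180, with all 40 arrays 3467, 1708, 2558 and 1825, and with a difference of at least 1 as well 172, 214, 97 and 78. With the 8 U2OS arrays they were 612 and 453 for the direct contrasts. Leaving out 1 array in turn gave 814 to 1653, 284 to 636, 302 to 1528 and 318 to 504, with the lowest counts without U2OS HINFP array 2, U2OS control array 1, CASP8AP2 array 1 and NPAT array 2, and the difference in HINFP itself ran from -1.92 to -1.37. The causes of these shifts were not tested beyond the arrays left out. Deviations of same-numbered U2OS arrays correlated at r = -0.0178 over genes for HINFP and control, 0.103 for HINFP and CASP8AP2, 0.0751 for HINFP and NPAT, and 0.139 to 0.169 among the other pairs of groups, so the numbers were not taken as pairing the samples. With the replicate block the counts were 2062, 613, 1275 and 833, and 5 of 47 genes named by rule lost their call (E2F2, ECT2, FDFT1, SLC7A11 and TGFBI), as did NKD1 and NOTCH2. For HINFP against control, 1013 higher and 1068 lower became 919 and 1203 with each array centred on its median, 1160 and 945 after cyclic loess and 1089 and 984 after quantile normalization. Centring gave 863 higher and 461 lower against CASP8AP2 siRNA in place of 697 and 538, and turned the interaction from 378 higher and 317 lower to 300 higher and 416 lower. Of the 47 genes, 28 kept their side of the threshold in every alternative that could be fitted. The other 19 lost their call in at least 1, and 0 of the called genes reversed direction. The 28 include NPAT and CASP8AP2, which were not called in any fit. The difference of CASP8AP2 ran from -0.04 to 0.23, so its direction was not fixed.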

Other observations

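Other called genes with a symbol fell into groups that were picked from the called genes after their values had been seen, so their counts carry no weight of their own. Whether their calls hold without single arrays was not examined. The 11 genes of cell division and DNA repair outside the groups of the report were all lower after HINFP siRNA in U2OS, with limma adjusted p-values between 0.00204 and 0.0399. Among them RAD17, the checkpoint clamp loader, fell by 0.70 from 7.93 and 7.91 to 7.37 and 7.08, BORA, an activator of Aurora A and PLK1, by 0.69, NUF2, a kinetochore protein, by 0.57, and the nuclease and helicase DNA2 by 0.55. The glycosylase NEIL3 fell by 0.52 and FANCG, of the Fanconi anaemia core complex, by 0.47. Of these 11 genes 5 were called in hTERT-RPE1 as well, KIF18B, NUF2, FANCG, CDCA8 and DNA2, all lower. The same was so for 20% of all U2OS calls with a symbol. A difference between the lines was called for 0 of the 11, beside 21 of the 126 genes with a symbol called lower in U2OS. The NEIL3 difference was -0.52 in U2OS and -0.04 in hTERT-RPE1 (limma interaction, adjusted p = 0.0633).

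The chromatin regulators KDM5B, KMT2A and ING2 rose by 0.60, 0.58 and 0.35, with limma adjusted p-values between 0.00231 and 0.0315. KDM5B, a histone demethylase, went from 8.32 and 8.21 to 8.79 and 8.94, and KMT2A, a histone methyltransferase, from 8.23 and 8.35 to 8.80 and 8.93. Among ion channel genes, the GABA receptor subunit GABRA5, ASIC1, TRPM6 and KCNJ8 fell by 0.48 to 0.57. The sodium channel subunits SCN3B and SCN8A and the sperm channel gene CATSPER1 rose by 0.51, 0.41 and 0.42. The limma adjusted p-values of these channel genes lay between 0.00521 and 0.0373.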
